A study of Homo sapiens with 11 samples.

Results

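The 10 genes described here encode enzymes that make, use or break down serine and glycine, or process one-carbon units on folate: GLDC, AMT, GCSH, GATM, PHGDH, PSAT1, PSPH, SHMT1, SHMT2 and MTHFD2. They were taken by gene symbol, and all 10 were found among the 28252 genes of the RNA-Seq tables and among the 26237 promoters of the H3K4me3 ChIP-Seq tables. GATM is the study's example of a gene transiently upregulated by nickel in its bronchial cells. GLDC was chosen with earlier results of these data known. The other 8 were set beside GLDC and GATM for their place in the same pathway. The list as a whole was also drawn up with those results known. The choice of these genes, GLDC and GATM above all, is thus not independent of their behaviour in nickel-treated cells.

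The study compared human epithelial cells before, during and after exposure to nickel. RT4, a line from a human urinary bladder tumour, was measured by RNA-Seq as untreated cells (UT), as cells kept for 6 weeks in 100 μM NiCl2 (Ni-E), and as cells treated in the same way and then washed and grown for 2 weeks in medium free of nickel (Ni-W), with 2 libraries in each group. BEAS-2B, an immortalized human bronchial epithelial line, was measured by ChIP-Seq for H3K4me3, the trimethyl mark on lysine 4 of histone H3 that is found at the start sites of active genes, with 1 library each for UT, Ni-E (6 weeks in 100 μM NiCl2) and Ni-W. The BEAS-2B Ni-W cells were 1 population grown from a single colony of exposed cells and kept without nickel for more than 6 months, so in that library the effect of the exposure and the particular history of the colony cannot be told apart. The labels give a washout of 2 weeks for both lines before they describe the colony, and the longer time is the one given for the population that was profiled.

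Cells make serine from a glycolytic intermediate in 3 steps, catalysed in turn by PHGDH, PSAT1 and PSPH. Serine hydroxymethyltransferase (SHMT1 in the cytosol, SHMT2 in mitochondria) then splits serine into glycine and a one-carbon unit carried by folate, and MTHFD2 oxidises that unit in mitochondria. The glycine cleavage system, made of GLDC (the decarboxylase), AMT (the aminomethyltransferase), GCSH (the lipoate carrier) and the shared subunit DLD, breaks glycine down and charges folate from it, while GATM joins glycine to the amidino group of arginine in the first step of creatine synthesis. The one-carbon units feed purine and thymidylate synthesis and the methionine cycle, and several genes of serine synthesis and mitochondrial folate metabolism are textbook targets of the stress-responsive transcription factor ATF4.

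The promoters of 4 of the 10 genes are printed because the results below turn on them: GLDC and AMT, 2 genes of the glycine cleavage system whose promoters carried much and little H3K4me3, and PSAT1 and MTHFD2, 2 genes of serine synthesis and mitochondrial folate metabolism with strongly marked promoters. Each run is the 250 bases before the start site, 5′ to 3′ on the strand of the gene, from RefSeq on GRCh38.p14, and capitals mark every CpG dinucleotide, the site of DNA methylation. The GLDC run is chr9:6645730-6645979 on the minus strand, the AMT run chr3:49422474-49422723 on the minus strand, the PSAT1 run chr9:78296875-78297124 on the plus strand, and the MTHFD2 run chr2:74198365-74198614 on the plus strand.
GLDC: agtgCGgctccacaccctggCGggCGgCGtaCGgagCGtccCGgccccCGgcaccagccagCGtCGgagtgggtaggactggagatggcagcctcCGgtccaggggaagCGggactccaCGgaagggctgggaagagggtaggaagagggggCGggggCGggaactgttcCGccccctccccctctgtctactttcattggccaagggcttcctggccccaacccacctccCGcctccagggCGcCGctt
AMT: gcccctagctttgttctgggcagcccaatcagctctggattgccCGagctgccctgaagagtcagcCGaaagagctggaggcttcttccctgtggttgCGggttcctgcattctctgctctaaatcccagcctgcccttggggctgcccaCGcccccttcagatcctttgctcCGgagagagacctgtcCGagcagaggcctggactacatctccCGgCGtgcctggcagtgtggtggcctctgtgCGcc
PSAT1: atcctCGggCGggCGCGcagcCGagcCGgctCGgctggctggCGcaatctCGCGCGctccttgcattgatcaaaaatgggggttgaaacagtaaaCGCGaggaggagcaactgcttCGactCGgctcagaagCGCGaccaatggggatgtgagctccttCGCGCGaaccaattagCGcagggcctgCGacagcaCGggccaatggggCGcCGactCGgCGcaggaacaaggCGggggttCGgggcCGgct
MTHFD2: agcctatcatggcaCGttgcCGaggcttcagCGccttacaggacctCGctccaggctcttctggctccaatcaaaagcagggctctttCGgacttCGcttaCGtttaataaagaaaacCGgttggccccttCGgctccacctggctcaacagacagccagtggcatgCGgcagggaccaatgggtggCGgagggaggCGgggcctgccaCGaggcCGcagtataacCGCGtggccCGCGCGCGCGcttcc
These runs were chosen after their values were seen. They held 19 CpG dinucleotides in GLDC, 9 in AMT, 30 in PSAT1 and 21 in MTHFD2, where the median of all 27305 promoters in the table was 11. Of the other members, GATM held 33, GCSH 24, SHMT1 19 and PHGDH 11. The table held 8 of the members, all but SHMT2 and PSPH.

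Short motifs were searched on both strands of the same 250 bases in those 8 promoters. The composite C/EBP-ATF element TGATGNAA that ATF4 binds was in 0 of 8, against 3.19% of all promoters, and the E-box CACGTG was also in 0 of 8, against 6.49%. The antioxidant response element TGACNNNGC was in 1 of 8, GCSH, against 11% of all promoters. The core of the hypoxia response element in the form ACGTG was in 2 of 8, GATM and MTHFD2, against 18.7%, and in the form GCGTG in 3 of 8, AMT, GCSH and MTHFD2, against 31.9%. The ACGTG form lies inside the E-box CACGTG, so the 2 searches overlap. A match is a run of letters and not a measured site, and a missing match says only that those letters were not in the window.

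The RT4 libraries held between 17075833 and 27736454 estimated counts, with replicate 2 the deeper library in every group. RT4 cells expressed the urothelial marker list, with 14 of 14 markers at 1 TPM or more in UT and Ni-W and 13 of 14 in Ni-E, where KRT20 was under that level. The summed markers of fibroblasts were between 1.09 and 5.13 TPM with 4 of 7 at 0 in every library, and those of leukocytes between 0.22 and 0.81 TPM, against 13570 to 17120 TPM for the urothelial list. Of the urothelial list, the terminal differentiation genes KRT20 and UPK1A fell in Ni-E against UT by the test used below, KRT20 from 9.51 and 11.7 CPM to 0.221 and 0.109 and UPK1A to a level 4.83-fold lower, and KRT20 was also lower in Ni-W, at 1.26 and 1.43 CPM. Of all genes tested, that test called 0.71% lower in Ni-E and 0.0965% lower in Ni-W against UT. With the replicate number as a block, 6 of the 14 urothelial markers were called lower in Ni-E, beside 5% of all genes. UPK2 (3.10-fold lower), UPK1B, UPK3A and FOXA1 were the additions. In Ni-W 2 were called lower than in UT, KRT20 and UPK1A, beside 2.78% of all genes. In Ni-W against Ni-E 6 were called higher, beside 2.72% of all genes. The fibroblast gene COL3A1 stood at 2.36 and 0.864 CPM in UT, 11.96 and 7.07 in Ni-E and 11.8 and 5.05 in Ni-W, and the part of these genes in the results was not tested. In BEAS-2B UT cells, the promoters of the epithelial keratins KRT7, KRT8 and KRT18 carried 7.15, 7.33 and 7.26 RPKM. The other epithelial markers listed were lower, with EPCAM at 2.21, CDH1 at 1.02, KRT19 at 0.432, the basal cell factor TP63 at 0.388 and KRT5 at 0.22 RPKM. Of the fibroblast list, COL1A1, PDGFRB and THY1 carried 8.74, 6.98 and 1.885 RPKM, and COL1A2, LUM, DCN and COL3A1 carried 0.476 or less. In the Ni-W ChIP library 22.9% of the reads fell in promoters, against 37.6% in UT and 36% in Ni-E. Its part in the comparisons with Ni-W below was not tested.

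Among the 10 genes in untreated RT4 cells, RNA was highest for PHGDH, which opens serine synthesis, and SHMT2, which splits serine in mitochondria, and lowest for AMT. On the TPM scale, which is corrected for gene length and so allows levels of different genes to be compared, PHGDH stood at 279 ± 4.45 (mean ± SD, n = 2) and SHMT2 at 172 ± 21.0 TPM. SHMT1 at 62.8 ± 5.88, GATM at 46.3 ± 17.5, PSAT1 at 36.6 ± 9.69 and MTHFD2 at 33.6 ± 9.83 TPM followed, and each of these overlapped its neighbour in the order. GCSH at 14.5 ± 1.32, GLDC at 13.8 ± 5.47 and PSPH at 13.0 ± 3.21 TPM overlapped each other as well, and AMT at 7.15 ± 0.40 TPM was lowest. The replicates separated PHGDH from SHMT2, SHMT2 from SHMT1, MTHFD2 from GCSH and PSPH from AMT, and no other neighbours in this order. All 10 genes passed the filter on low counts and were tested.

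**Figure D1:**
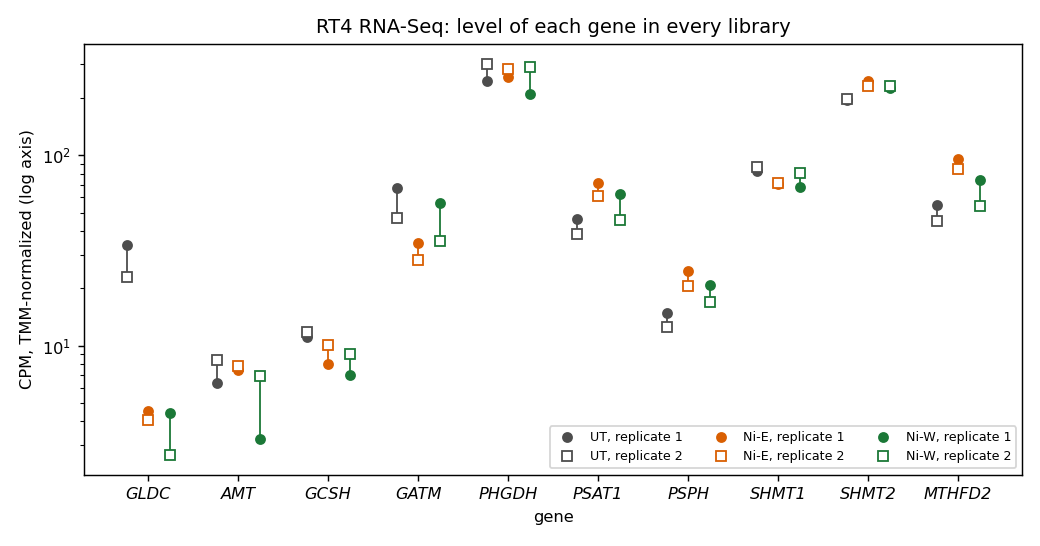
RNA level of the 10 genes in each RT4 library, as TMM-normalized read counts (CPM) on a log axis, with filled circles for replicate 1, open squares for replicate 2 and a line joining the 2 libraries of a group. GLDC lies between 22.9 and 33.9 CPM in UT and between 2.66 and 4.52 CPM in the 4 libraries of Ni-E and Ni-W, while PHGDH and SHMT1 stay within narrow ranges.

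The RNA of GLDC, the decarboxylase of the glycine cleavage system, fell in nickel-exposed RT4 cells and was still low 2 weeks after nickel was removed. In normalised read counts (CPM, scaled for library size by the TMM method and used below for comparing conditions), GLDC stood at 33.9 and 22.9 in the UT libraries, at 4.52 and 4.08 in Ni-E and at 4.42 and 2.66 in Ni-W. The UT libraries were above all 4 nickel libraries, and the ranges of Ni-E and Ni-W overlapped. Behind these values lay 631 and 584 estimated counts in UT, 82 and 112 in Ni-E, and 77 and 69 in Ni-W.

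GLDC fell by 2.72 on the log2 scale in Ni-E against UT (SE 0.35, 6.60-fold lower, adjusted p = 0.0276 by edgeR's quasi-likelihood test with Benjamini-Hochberg adjustment). In Ni-W against UT it fell by 3.01 (SE 0.35, 8.06-fold lower, adjusted p = 0.0356). A gene was called when its adjusted p was under 0.05 and its change at least 1.5-fold, and GLDC was the 1 member of 10 called in each of these contrasts, both times lower. Of the 14502 genes tested, 2.17% were called in Ni-E against UT, with 0.71% lower and 1.45% higher, and 0.6% in Ni-W against UT, with 0.0965% lower and 0.503% higher. Within replicate 1 the log2 ratio to UT was −2.91 in Ni-E and −2.94 in Ni-W, and within replicate 2 it was −2.49 and −3.11. Both contrasts use the same 2 UT libraries, so the second is not a separate repeat of the first.

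The GLDC call depended on which libraries were in the fit, as did the calls over all genes, given in the last section. The fits that left out a library did not use the replicate block, so fewer libraries and the ignored pairing cannot be told apart. Without either UT library or either Ni-E library the Ni-E call was lost, with log2 values between −2.98 and −2.41 over the 6 ways of leaving out a library and adjusted p up to 0.269, and the Ni-W call was lost in all 6, between −3.41 and −2.68 with adjusted p from 0.058 to 0.164. Neither was called by limma on log2(TPM + 1), and the Ni-W call was also lost in a fit of the 2 groups alone. With the replicate number as a block, adjusted p was 5.38e-06 for Ni-E and 4.71e-06 for Ni-W. These are bulk RNA samples, in which fewer cells expressing a gene and less RNA per cell cannot be told apart.

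The other genes of glycine cleavage did not move with GLDC to a degree the test called. AMT, the aminomethyltransferase, stood at 6.34 and 8.40 CPM in UT, 7.44 and 7.87 in Ni-E, and 3.22 and 6.94 in Ni-W. Its groups overlapped except for Ni-W against Ni-E, and the low value was 1 Ni-W library (log2 difference Ni-E against UT 0.05, SE 0.39, and Ni-W against UT −0.53, SE 0.40). AMT overlaps NICN1 in the annotation and its estimated counts were not whole numbers, so some of its reads were shared out between genes. GCSH, the lipoate-bearing carrier protein, stood at 11.1 and 11.7 CPM in UT, 7.99 and 10.1 in Ni-E, and 7.01 and 9.06 in Ni-W. Both UT libraries were above the nickel libraries, and the differences from UT, −0.33 (SE 0.24) in Ni-E and −0.50 (SE 0.25) in Ni-W on the log2 scale, had adjusted p of 0.811 and 0.71. GCSH has processed pseudogene copies, which makes its counts less certain. DLD, the subunit that glycine cleavage shares with other dehydrogenase complexes, was not called in any contrast, with log2 differences from UT of −0.15 in Ni-E and −0.08 in Ni-W.

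In RT4 cells GATM, the first enzyme of creatine synthesis, was lower under nickel and closer to its untreated level after washout. In BEAS-2B, whose RNA was not analysed here, the paper gives GATM as an example of genes transiently raised by nickel, the opposite direction. In RT4 GATM stood at 67.3 and 46.9 CPM in UT, 34.7 and 28.0 in Ni-E, and 56.1 and 35.3 in Ni-W. Ni-E lay below both other groups, whereas Ni-W and UT overlapped. The Ni-E difference of −0.86 on the log2 scale (SE 0.31) missed the threshold without the block, with an edgeR adjusted p of 0.327, and passed with the replicate block (−0.85, SE 0.13, adjusted p = 0.00102). In Ni-W the difference from UT was −0.32 (SE 0.31, adjusted p = 0.999), and −0.33 with adjusted p = 0.119 with the block. Ni-W stood above Ni-E by 0.51 (SE 0.13) in the fit with the block, with adjusted p = 0.0414 but under 1.5-fold. Within each replicate number the GATM ratio of Ni-E to UT was −0.96 and −0.74, and of Ni-W to Ni-E 0.69 and 0.33, on the log2 scale.

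Of the serine-making genes, PSAT1 and PSPH were called higher in Ni-E than in UT, and only in the fit with the replicate block. PHGDH was not called in either fit, and the difference between these genes was not tested. PHGDH, the dehydrogenase that opens the pathway, stood at 246 and 303 CPM in UT, 259 and 282 in Ni-E, and 209 and 292 in Ni-W. The 3 groups overlapped, and its difference from UT was −0.02 (SE 0.22) in Ni-E and −0.13 (SE 0.22) in Ni-W on the log2 scale. PSAT1, the aminotransferase of the second step, stood at 46.5 and 38.4 CPM in UT, 71.7 and 61.2 in Ni-E, and 62.8 and 46.0 in Ni-W. PSPH, the phosphatase that releases serine, stood at 14.9 and 12.5 CPM in UT, 24.5 and 20.5 in Ni-E, and 20.8 and 16.9 in Ni-W. Both PSAT1 and PSPH were higher in Ni-E than in UT with no overlap, and in Ni-W PSAT1 overlapped both other groups while PSPH lay above UT and overlapped Ni-E.

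The Ni-E rise of PSAT1 was 0.65 on the log2 scale with the replicate block (SE 0.12, 1.57-fold, adjusted p = 0.00305 by edgeR) and 0.65 without it (SE 0.23, adjusted p = 0.327). For PSPH the values were 0.72 with the block (SE 0.14, 1.64-fold, adjusted p = 0.00457) and 0.72 without it (SE 0.22, adjusted p = 0.237). In Ni-W neither gene passed in either fit, with 0.36 for PSAT1 and 0.46 for PSPH against UT without the block. PSPH has near-identical copies elsewhere in the genome that can share its reads.

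Of SHMT1, SHMT2 and MTHFD2, the member that differed most from UT in Ni-E was MTHFD2, the mitochondrial dehydrogenase and cyclohydrolase. It stood at 54.6 and 45.3 CPM in UT, 95.2 and 84.8 in Ni-E, and 73.8 and 54.0 in Ni-W. Ni-E was above both other groups, and Ni-W overlapped UT. The Ni-E rise was 0.85 on the log2 scale in the fit with the block (SE 0.12, 1.81-fold, adjusted p = 0.000552 by edgeR) and 0.85 without it (SE 0.23, adjusted p = 0.165), and in Ni-W the difference from UT was 0.35 (SE 0.23) and was not called in either fit. Ni-W was below Ni-E by 0.51 with the block (SE 0.11, adjusted p = 0.0278), short of 1.5-fold.

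The serine hydroxymethyltransferases moved little. SHMT2, the mitochondrial form, stood at 195 and 198 CPM in UT, 246 and 231 in Ni-E, and 226 and 230.2 in Ni-W. Both nickel groups lay above UT without overlap, by 0.28 (SE 0.15) in Ni-E and 0.21 (SE 0.15) in Ni-W on the log2 scale, and neither passed in either fit. SHMT1, the cytosolic form, stood at 82.6 and 86.7 CPM in UT, 70.7 and 71.6 in Ni-E, and 67.8 and 80.2 in Ni-W, below UT in both nickel groups by log2 differences of −0.25 (SE 0.17) and −0.19 (SE 0.17). Neither of these passed in either fit.

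**Figure D2:**
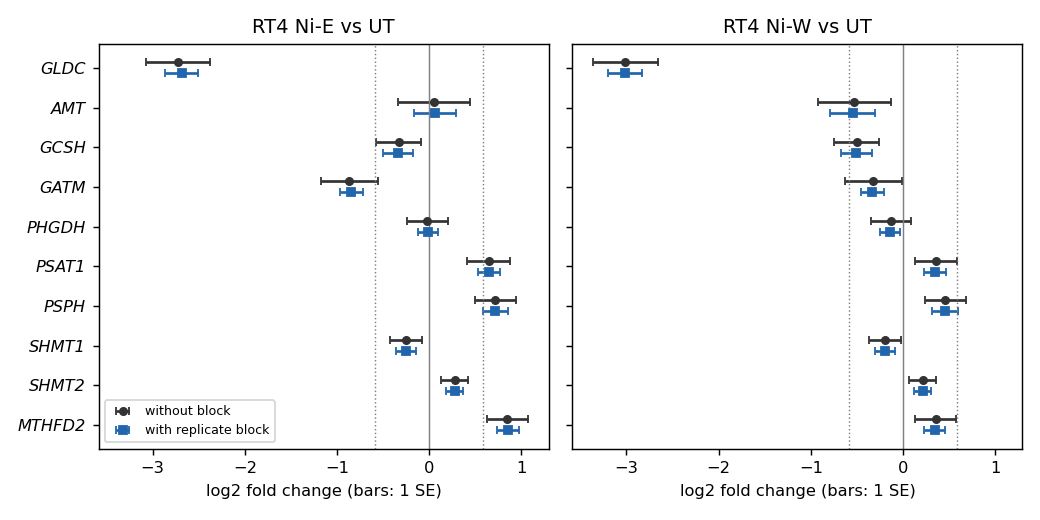
Log2 fold change of the 10 genes in RT4 cells for Ni-E against UT (left) and Ni-W against UT (right), with bars of 1 SE, circles for the fit without a block, squares for the fit with the replicate number as a block, and dotted lines at 1.5-fold. GLDC lies at −2.72 and −3.01 without the block, and in the left panel PSAT1, PSPH and MTHFD2 lie above the upper dotted line and GATM below the lower one.

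Counted together, the fit with the replicate block called 5 of 10 members in Ni-E against UT, 3 higher (PSAT1, PSPH and MTHFD2) and 2 lower (GLDC and GATM), where it called 12.6% of all genes tested, 7.64% higher and 5% lower. In Ni-W against UT it called 1 of 10, GLDC, against 8.57% of all genes, 5.79% higher and 2.78% lower. In Ni-W against Ni-E no member was called, by edgeR with or without the block or by DESeq2, and 0 of 10 had an unadjusted p under 0.05 in edgeR without the block, where edgeR called 0% of all genes without the block and 4.52% with it, 2.72% higher and 1.8% lower. Without the block, 5 of 10 members had an unadjusted p under 0.05 in Ni-E against UT, namely the same 5, and 1 of 10 in Ni-W against UT, where 12.2% and 9.12% of all genes tested did and 5.57% in Ni-W against Ni-E. The median log2 difference of the members was 0.02 in Ni-E and −0.16 in Ni-W against UT, beside −0.01 and 0.00 over all genes tested.

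A wider list of 62 pathway genes in 8 groups, of which 47 were tested, held 3 genes called in Ni-E against UT without the block. These had the same background as above, 1.45% of all genes called higher and 0.71% lower. SLC6A8, the creatine transporter, rose from 120 and 129 CPM in UT to 531 and 527 in Ni-E (log2 2.08, SE 0.16, 4.24-fold, adjusted p = 0.00928 by edgeR). It was still higher in Ni-W, at 282 and 321 CPM (1.27, SE 0.16, 2.41-fold, adjusted p = 0.0455), the 1 gene of the wider list called there, where 0.503% of all genes were called higher. SLC6A8 has pseudogene copies, which makes its counts less certain.

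CKB, the brain-type creatine kinase that stores phosphate on creatine, went the other way. It fell from 51.3 and 67.2 CPM in UT to 8.38 and 10.5 in Ni-E (log2 −2.65, SE 0.31, 6.27-fold lower, adjusted p = 0.023), and stood at 28.7 and 45.2 CPM in Ni-W. Its Ni-W libraries lay between the other 2 groups, and in the fit with the block CKB was called 3.88-fold higher in Ni-W than in Ni-E (adjusted p = 4.54e-05) and 1.62-fold lower than in UT (adjusted p = 0.00475). GAMT, which completes creatine synthesis after GATM, stood at 19.2 and 33.4 CPM in UT, 43.3 and 57.0 in Ni-E and 29.8 and 53.0 in Ni-W, and was called higher in both contrasts only in the fit with the block (1.95-fold, adjusted p = 0.000839, and 1.57-fold, adjusted p = 0.0129). In Ni-E the creatine genes thus held values in both directions, with GATM and CKB low and GAMT and SLC6A8 high.

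TYMS, which makes thymidylate with a folate one-carbon unit, rose from 122 and 100.4 CPM in UT to 251 and 241 in Ni-E (log2 1.14, SE 0.18, 2.21-fold, adjusted p = 0.0456 by edgeR), and stood at 187 and 158 CPM in Ni-W. With the block it was also called in Ni-W against UT (1.55-fold, adjusted p = 0.00213). The genes that the block added in Ni-E against UT were GAMT, MTHFD1L (the mitochondrial formate-releasing enzyme, 1.68-fold, adjusted p = 0.00241) and SFXN3 (a mitochondrial sideroflexin, 1.70-fold, adjusted p = 0.00106), for 5 higher and 1 lower of 47, where the block called 7.64% of all genes higher and 5% lower. These block-only genes were named after their values were seen. The purine, methionine-cycle, choline and folate-transport groups held no called gene in any of the 3 contrasts by edgeR in either fit, and 0 genes at an unadjusted p under 0.05 without the block. In the methionine-cycle group, CBS had 172 and 0 estimated counts in UT, 277 and 442 in Ni-E, and 307 and 479 in Ni-W. Its Ni-E difference from UT was 1.79 on the log2 scale (SE 1.46) without the block. What lay behind the 0 in 1 UT library was not tested. In Ni-W against Ni-E 0 of the 47 were called without the block, where 4 had an unadjusted p under 0.05, and with the block CKB was called higher and SLC6A8 1.76-fold lower (adjusted p = 0.000919).

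Of 10 genes regulated by ATF4 outside the pathway, ATF4 itself included, 2 were called in Ni-E against UT without the block, both higher, where 1.45% of all genes were. SLC7A11, the cystine transporter subunit, rose from 15.5 and 15.2 CPM to 50.6 and 50.3 (log2 1.72, SE 0.24, adjusted p = 0.0321 by edgeR). VLDLR, a lipoprotein receptor, rose from 5.69 and 5.34 CPM to 32.2 and 23.9 (2.35, SE 0.26, adjusted p = 0.02). ASNS, the asparagine synthetase, and CHAC1, which degrades glutathione, were added by the block, at 1.69-fold (adjusted p = 0.0019) and 3.45-fold (adjusted p = 0.000151), for 4 of 10 higher beside 7.64% of all genes. ATF4 RNA stood at 420 and 661 CPM in UT and 586 and 782 in Ni-E, and was not called. The remaining genes of this list were not called in either fit. Their log2 differences in Ni-E against UT without the block were 0.49 for SESN2, 0.35 for DDIT3, 0.29 for SLC3A2, 0.05 for TRIB3 and −0.21 for CEBPB. In Ni-W against UT none of the 10 was called by edgeR without the block, where 3 had an unadjusted p under 0.05, and CHAC1, SLC7A11 and VLDLR were called higher with it, beside 5.79% of all genes. SLC7A11 stood at 35.6 and 24.2 CPM and VLDLR at 14.9 and 11.8 CPM in Ni-W, between UT and Ni-E.

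The genes whose pattern over the 6 RT4 libraries lay nearest to GLDC, by the root mean square difference of log2 CPM after centring each gene, were KCNH5 (0.22), PTCHD1 (0.30) and PCDH19 (0.32). KCNH5, a potassium channel gene, stood at 5.00 and 2.88 TPM in UT, 0.48 and 0.28 in Ni-E and 0.63 and 0.25 in Ni-W. For GATM they were GDA (0.07), MTSS1 (0.09) and ENTPD3 (0.09). MTSS1, an actin and membrane-binding protein, stood at 14.6 and 9.41 TPM in UT, 7.54 and 6.15 in Ni-E and 13.1 and 7.18 in Ni-W, with the higher value of each pair in replicate 1, as in GATM. The 6 points share 3 groups, so likeness over them is a description.

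In untreated BEAS-2B cells, 9 of the 10 promoters carried H3K4me3 above the median promoter of 1.57 RPKM. The values are RPKM, a read density scaled for library size, over 2 kb on each side of the start site. SHMT2 carried 10.1 RPKM, PSAT1 9.51, MTHFD2 9.34, SHMT1 8.47, PSPH 7.61, PHGDH 7.57 and GLDC 6.62, while GCSH at 3.26 and GATM at 2.33 were lower. AMT, at 0.335 RPKM from 38 reads (95% Wilson interval 0.244 to 0.459), stood at the 36th percentile of all promoters. Its RNA above came from RT4, a different line, so the RNA and the mark are not a pair. With 1 library per condition there is no test here, and the intervals cover counting error only.

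**Figure D3:**
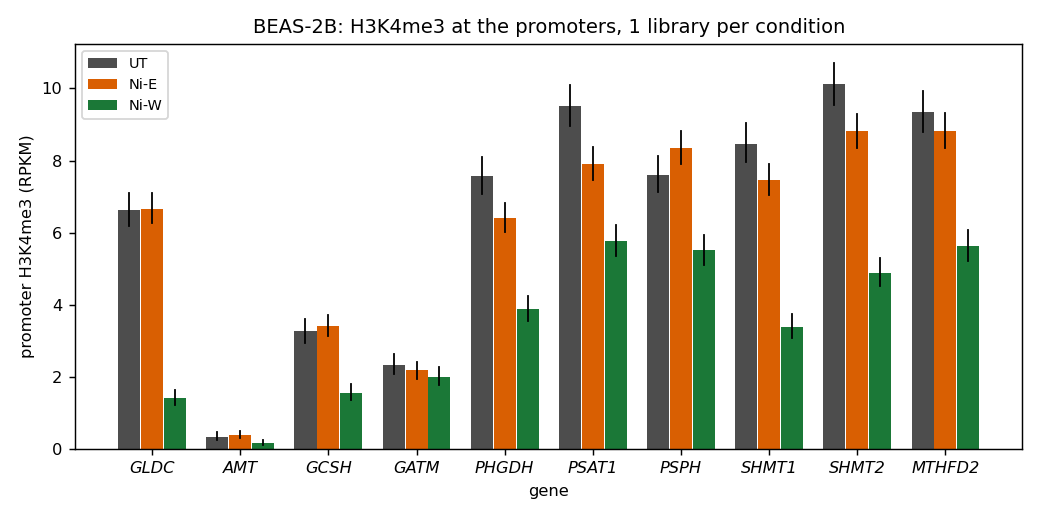
Promoter H3K4me3 of the 10 genes in BEAS-2B cells, in RPKM as deposited, for UT, Ni-E and Ni-W with 1 library each, where the black lines are 95% Wilson intervals of the reads. The Ni-W bar of GLDC is at 1.41 RPKM against 6.62 in UT and 6.66 in Ni-E, and AMT is near 0 in all 3.

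Under nickel, H3K4me3 at these promoters stayed near its untreated level. GLDC carried 6.62 RPKM in UT and 6.66 in Ni-E, from 752 and 999 reads, a log2 ratio of 0.19 after both libraries were divided by their median promoter (95% counting interval 0.05 to 0.32). Across the 10 promoters this ratio ran from −0.09 in PSAT1 to 0.36 in AMT, with a median of 0.08 beside 0.11 over all promoters with at least 1 RPKM in either library. No member passed 1.5-fold in either direction, where 0.567% of all such promoters were that much lower and 0.847% higher. In RT4 cells GLDC RNA fell in the Ni-E group, but the RNA and the mark were measured in different cell lines and are not a pair.

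Long after nickel, the GLDC promoter was the member with the lowest H3K4me3 relative to UT. It carried 1.41 RPKM in Ni-W from 169 reads (1.21 to 1.64), down from 6.62 in UT (6.17 to 7.11). The median-scaled log2 ratio was −1.74 (95% counting interval −1.98 to −1.503), or 3.35-fold lower, and it was −2.23 without median scaling and −1.63 after quantile normalization. Among the 7966 promoters that carried 5 to 12 RPKM in UT, 0 had a lower Ni-W to UT ratio than GLDC, and the middle of that class was −0.35. GLDC was chosen with earlier results of these data known, so this rank is a description and not independent support.

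The other promoters were read against the change of the whole Ni-W library. Over all promoters with at least 1 RPKM the median log2 ratio of Ni-W to UT was −0.32 with median scaling, −0.81 without scaling and −0.07 with quantile normalization, so changes are given relative to these. SHMT1 went from 8.47 to 3.38 RPKM (median-scaled log2 ratio −0.84, counting interval −1.01 to −0.67), and SHMT2 from 10.1 to 4.89 (−0.56). PHGDH went from 7.57 to 3.88 RPKM (−0.48), PSAT1 from 9.51 to 5.76 (−0.24) and MTHFD2 from 9.34 to 5.63 (−0.24). PSPH went from 7.61 to 5.50 RPKM (0.02), and GATM from 2.33 to 2.00 (0.26, counting interval 0.01 to 0.51), the highest ratio of the 10 with each of the 3 scalings. The paper reports lower H3K4me3 in Ni-W for its transiently upregulated genes as a group, with GATM as the example shown. By the difference-based score of the study's methods, GATM alone stood at 0.12 in Ni-W against UT, the other direction. The sign of the smaller ratios depended on the scaling, since GATM and PSPH were at −0.23 and −0.47 without scaling, and PSAT1 and MTHFD2 at 0.01 and 0.00 with quantile normalization.

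With median scaling, 2 of the 9 members with at least 1 RPKM were at least 1.5-fold lower in Ni-W than in UT, GLDC and SHMT1, where 18.4% of all such promoters were. Without scaling the count was 7 of 9, beside 71.2%, and with quantile normalization 1 of 9, GLDC, beside 5.28%. These shares of the members stand near the share of all promoters under median scaling and without scaling, so the count says little about the list. In Ni-W against Ni-E the members 1.5-fold lower were 3 of 9, GLDC, SHMT1 and GCSH, beside 30.5%. GCSH went from 3.26 RPKM in UT and 3.40 in Ni-E to 1.55 in Ni-W, and AMT from 38 reads in UT and 57 in Ni-E to 18 in Ni-W (median-scaled log2 ratio to UT −0.67, counting interval −1.48 to 0.14).

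The ratios also varied with where the genes lie. GLDC spans chr9:6532467-6645729 on the minus strand of GRCh38, and the 23 other promoters within 5 Mb of its start that carried at least 1 RPKM in UT had a median log2 ratio of Ni-W to UT of −0.84, below the −0.32 of all promoters. None of the 23 was below GLDC. The nearest promoters more than 4 kb away were KDM4C, a histone demethylase gene 112 kb away that went from 9.899 to 3.42 RPKM (−1.05), and UHRF2, a ubiquitin ligase gene 232 kb away that went from 9.98 to 4.14 (−0.78). PTPRD, 3967 kb away, stood at −0.84, and TPD52L3, IL33 and PTPRD-AS1 carried under 1 RPKM. VLDLR, on the ATF4 list above, lies in the same window and stood at −1.13. In Ni-E against UT the median of the window was 0.14.

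**Figure D4:**
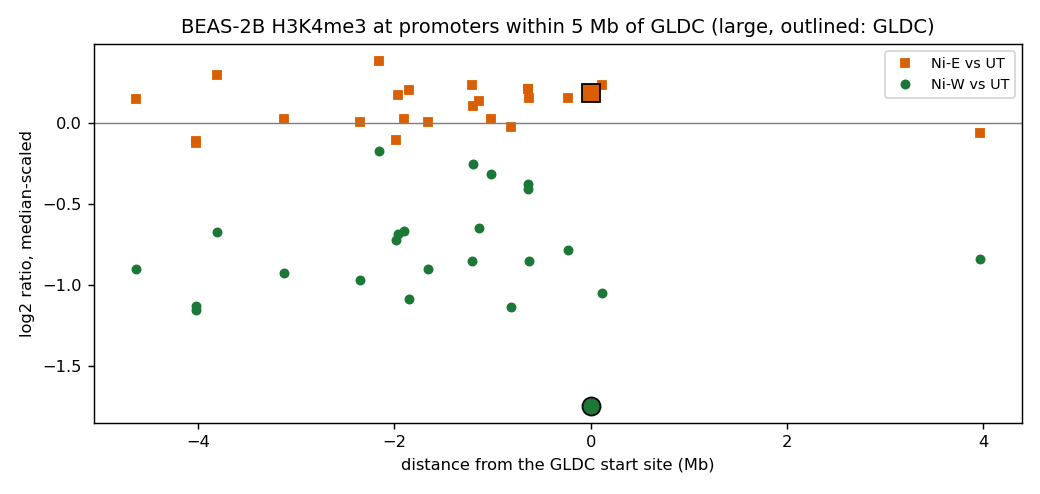
Median-scaled log2 ratio of promoter H3K4me3 in BEAS-2B cells against distance from the GLDC start site in Mb, for the promoters within 5 Mb with at least 1 RPKM in UT, with squares for Ni-E against UT, circles for Ni-W against UT, and GLDC enlarged. The Ni-W circles lie below 0 with a median of −0.84, and GLDC is lowest at −1.74.

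Each of the other promoters was set beside its own surroundings in the same way. Within 5 Mb of SHMT1 (17, minus strand) the median of 61 promoters was −0.67, beside −0.84 for SHMT1 itself, and within 5 Mb of AMT it was −0.50 over 149 promoters, beside −0.67. For GCSH the surroundings stood at −0.52 over 38 promoters and the gene at −0.58, for SHMT2 at −0.50 over 109 and −0.56, and for PHGDH at −0.35 over 25 and −0.48. The surroundings of PSAT1, GATM and PSPH were near 0, with medians of −0.02 over 18, 0.07 over 85 and 0.08 over 10 promoters, beside −0.24, 0.26 and 0.02 for the genes. MTHFD2 was above the middle of its surroundings, −0.24 beside −0.45 over 71 promoters. The distance from a gene's ratio to the median of its surroundings was thus 0.90 for GLDC and at most 0.22 for the other 9.

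**Figure D5:**
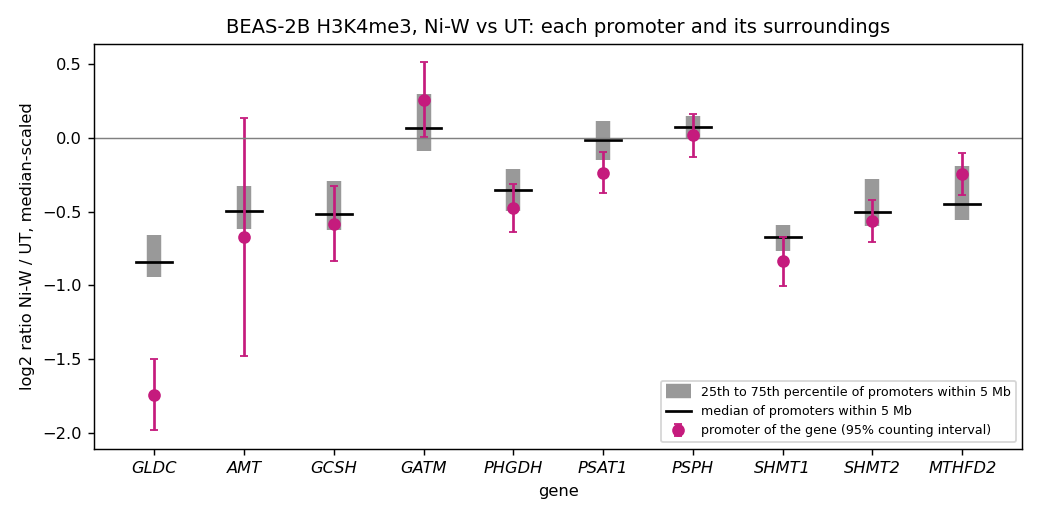
Median-scaled log2 ratio of promoter H3K4me3 in Ni-W against UT for each of the 10 genes (points with 95% counting intervals), beside the median (black line) and the 25th to 75th percentile (grey bar) of the other promoters within 5 Mb that carried at least 1 RPKM in UT. GLDC at −1.74 lies below its surroundings at −0.84, while the grey bars themselves range from about 0 around GATM, PSAT1 and PSPH to below −0.5 around GLDC and SHMT1.

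Around GATM, on chr15:45361124-45402327 of GRCh38, the ratios were mixed. Distances were counted from the start site used for GATM, at 45378544, which lies inside that span. SPATA5L1, whose start lies 23.8 kb away, stood at 0.14, with 8.97 RPKM in UT and 7.07 in Ni-W, and SHF, 191 kb away, at −0.20. C15orf48, 52.1 kb away, went from 0.625 RPKM in UT to 1.26 in Ni-W, a median-scaled log2 ratio of 1.499 (counting interval 1.09 to 1.91). SLC28A2, DUOX1 and MIR147B carried under 1 RPKM in all 3 libraries. AMT moved over 2-fold between Ni-E and Ni-W, at a median-scaled log2 ratio of −1.03 (counting interval −1.80 to −0.27) from few reads. In the same contrast its neighbours TCTA, RHOA and GPX1 on the left stood at −0.36, −0.35 and −0.46. NICN1, DAG1 and BSN on the right stood at −0.85, −0.96 and −0.29.

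Of the wider pathway list, 45 of 62 promoters carried at least 1 RPKM in either library of each contrast. In Ni-E against UT, GNMT, the glycine methyltransferase, was the 1 promoter past 1.5-fold, lower, from 1.30 to 0.593 RPKM. That was from 148 and 89 reads, close to the limit of 1 RPKM. Of all promoters 0.567% were that much lower and 0.847% higher. In Ni-W against UT 10 were at least 1.5-fold lower and 0 higher, beside 18.4% and 4.36% of all promoters, with the lowest ratios in ALDH1L2, a mitochondrial formyl-folate dehydrogenase (−0.9996), SDSL, a serine dehydratase-like enzyme (−0.83), and GLYCTK, the glycerate kinase (−0.81). TYMS went from 12.5 to 5.11 RPKM (−0.80), and DLD from 5.58 to 2.65 (−0.59). In Ni-W against Ni-E 14 were lower, with SDSL (−0.91), GLYCTK (−0.89) and TYMS (−0.81) lowest, and GNMT was higher (1.13), beside 30.5% and 4.04% of all promoters. The promoters of SLC6A8 and CKB, the creatine genes with the largest RNA differences in RT4, stood at −0.37 and −0.24 in Ni-W against UT, near the middle of all promoters.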

How the data were processed

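RT4 RNA-Seq came as RSEM gene tables, in which the authors deposited estimated counts, TPM and FPKM values per gene. The aligner run under RSEM is not given in the sources used here. The processing notes list STAR, DESeq2 and the builds GRCh38 and hg38, while the methods name hg19 for RNA. FPKM values as deposited were not used. BEAS-2B H3K4me3 came as 1 table per condition of RPKM values that the authors computed over 2 kb on each side of each start site after BWA alignment to GRCh38, with SAMtools and bedtools, keeping 1 copy of redundant reads. The extraction notes name replicates for ChIP, and whether they were pooled is not given. Input libraries and other BEAS-2B data were not analysed here.

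Estimated counts, 97.9% of them whole, were rounded, filtered with filterByExpr to 14502 of 28252 genes, scaled by TMM and tested with edgeR 4.0.16 in R 4.3.3 (quasi-likelihood test, 3 groups in 1 model, 3 residual degrees of freedom, Benjamini-Hochberg adjustment over all genes tested, called at adjusted p under 0.05 and 1.5-fold). Library totals were 18065667 and 25721265 (UT), 18280556 and 27736454 (Ni-E), and 17075833 and 26543400 (Ni-W). The methods call the RNA samples biological replicates without saying whether they are separate cultures, and p-values measure the spread between these libraries. DESeq2 1.42.0, limma 3.58.1 on log2(TPM + 1), other filters and size factors, the replicate block and leaving out each library were alternatives. Of these, only the fit with the replicate block paired the libraries. Replicate numbers were taken to pair the samples, since the deviations of the numbered libraries from their group means correlated at 0.87 (UT and Ni-E), 0.93 (UT and Ni-W) and 0.85 (Ni-E and Ni-W) over 11141 genes. The labels mark the second library of each group alike, without saying what it shares, so the pairing rests on these correlations. The fit was checked on simulated counts.

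RPKM values were whole multiples of 1 step per library, which gave 28385721 (UT), 37493927 (Ni-E) and 29933512 (Ni-W) reads, and a floor of 3 reads of 0.0264, 0.02 and 0.0251 RPKM. Ratios were scaled by the median promoter, and intervals are Wilson intervals at 95%. Promoters were placed by symbol on GENCODE for GRCh38 (22849 of 26237 matched).

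The members and the gene and marker lists were chosen with earlier results of these data known. All members are named. Of the other listed genes, up to 4 called higher and 4 lower per RT4 contrast with a mean of at least 1 TPM, and up to 3 higher and 3 lower past 1.5-fold per H3K4me3 contrast, are named by size, with 3 neighbouring promoters on each side of GLDC, GATM and members that moved over 2-fold, and the 3 genes most like GLDC and GATM. Genes called only with the block, COL3A1, DLD, CBS, ATF4 and the uncalled genes of the ATF4 list were added after values were seen. So were the promoters of TYMS, DLD, SLC6A8, CKB, VLDLR and the fibroblast list. The 5 Mb windows and the class of promoters with 5 to 12 RPKM in UT were as well.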

Additional observations from a re-analysis of the deposited data

How the results depend on the processing

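In RT4, GLDC kept its direction against UT in all 13 alternatives, with log2 values between −2.98 and −2.22 in Ni-E against UT (adjusted p 6.98e-10 to 0.269) and between −3.41 and −2.38 in Ni-W against UT (1.05e-11 to 0.174). The count of members called was 1 in each contrast with UT. With limma on log2(TPM + 1) it was 0 in both, and with only the 2 groups compared it was 0 in Ni-W against UT. With the replicate block, which pairs the libraries by number, it was 5 in Ni-E against UT and 1 in Ni-W against UT. Leaving out 1 library gave 0 to 1 in Ni-E against UT and 0 in Ni-W against UT in all 6 cases, where a group left with 1 library is taken to vary like the others. Differences under the threshold changed sign in some alternatives for AMT in Ni-E against UT, for PHGDH in all 3 contrasts, and for GLDC, GCSH and SHMT1 in Ni-W against Ni-E.

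Over all genes the calls in Ni-E against UT, Ni-W against UT and Ni-W against Ni-E numbered 314, 87 and 0 in the reported fit, 734, 437 and 139 with DESeq2, 170, 79 and 0 with limma, 449, 193 and 14 with no filter, 209, 54 and 0 with at least 10 counts in every library, and 1833, 1243 and 655 with the block. Without 1 library they were 0 to 320, 0 to 38 and 0.

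The median H3K4me3 ratio of the members moved with the scaling. In Ni-E against UT it was 0.08 as reported, −0.0928 without scaling, −0.0559 on log2(RPKM + 1) and 0.0466 as the difference-based score of the study's methods. In Ni-W against UT it was −0.52, then −1.01 without scaling, −0.24 after quantile normalization and −0.23 as the score. In Ni-W against Ni-E it was −0.48, then −0.79, −0.0703 and −0.28 under the same settings. AMT in Ni-W against UT changed sign, from −0.67 to 0.0095 on log2(RPKM + 1), at 18 to 38 reads. Ratios under 1.5-fold also changed sign: GATM in all 3 contrasts, PSPH in Ni-W against UT and MTHFD2 in Ni-E against UT without scaling, and with quantile normalization MTHFD2 in all 3 contrasts, PSAT1 in both contrasts with Ni-W, and PHGDH and PSPH in Ni-W against Ni-E. On log2(RPKM + 1), so did GATM and MTHFD2 in Ni-E against UT and PSPH in Ni-W against UT. Low read numbers at AMT, 2 libraries a group in RT4 and 1 library per condition in BEAS-2B limit what these data can show.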
